A study of Mus musculus with 8 samples.

Results

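Keratins and other epithelial genes were read out in the median eminence (ME), the part of the hypothalamic floor that faces the pituitary stalk. The group holds 10 genes, chosen by name: the keratins Krt5, Krt7, Krt8, Krt14, Krt18 and Krt19, the transcription factor gene Trp63, the adhesion gene Epcam, and the cadherin genes Cdh1 and Cdh2. All 10 were among the 55450 genes of the bulk count table, and 9 of them passed the filter on low counts, which left 20466 genes to test. Bulk RNAseq covered 3 control and 4 mutant libraries, each from the microdissected ME of a single mouse, C57BL/6 in the labels and C57BL/6N in the methods, and 2 months of age in the labels. Mutant mice were Rax-CreERT2::BrafV600E, in which a tamoxifen-inducible Cre expressed from Rax switches on BrafV600E in tanycytes, and by the methods of the study their tissue was taken 2 months after tamoxifen. The methods give tamoxifen to adult mice, so this time and the label age conflict for the mutants. Controls are labelled WT, and the sources used here name no other allele in them. The methods can be read as giving tamoxifen to both groups or to the mutants alone. A single-cell library, with no mutant counterpart, was made from the pooled ME of 10 wild-type female mice of the same strain, also 2 months of age, and held 990 cells.

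Keratins are the intermediate filament proteins of epithelia and form filaments only as pairs of a type II and a type I chain. Krt8 pairs with Krt18 in simple, single-layered epithelia, where Krt7 and Krt19 are also found, and Krt5 pairs with Krt14 in the basal layer of stratified squamous epithelia, whose master regulator is p63, the product of Trp63. Papillary craniopharyngioma is a squamous epithelial tumor of the same region that carries BRAF V600E, whereas tanycytes, the elongated cells lining the ventricle above the ME, are neuroepithelial and join through N-cadherin, the product of Cdh2. The pars tuberalis, a thin sheet of pituitary epithelium, is attached to the underside of the ME and is dissected with it.

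The bulk libraries held between 4928456 and 13816596 counts and between 17874 and 40852 detected genes, the 3 lowest numbers of genes being in control 2, control 3 and mutant 1. Of the engineered genes, Braf averaged 21.2 ± 11.1 CPM (counts scaled to a common library size, with TMM factors) in controls (SD, n = 3) and 22.3 ± 6.25 in mutants (SD, n = 4). Counts per gene do not separate the mutant from the normal Braf allele, so they do not check the labels. Rax was present in every library, at 26.8, 40.9 and 143 CPM in controls and at 175, 72.5, 33.2 and 48.6 CPM in mutants, and the groups overlapped. The summed level of 8 tanycyte markers was 966 to 1221 CPM in controls and 799 to 1323 CPM in mutants. Other cell types moved with the group: summed markers of vascular and leptomeningeal cells (VLMCs) were at 1207 to 2947 CPM in controls and 382 to 810 CPM in mutants, and those of endothelial cells at 266 to 455 and 78.7 to 157 CPM. Over all tested genes, edgeR's quasi-likelihood test with Benjamini-Hochberg adjustment called 0 at an adjusted p below 0.05, or 0% of those tested, while 1661 (8.12%) had an unadjusted p below 0.05 and DESeq2 called 301 (1.47%).

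The keratin genes lie in the 2 keratin clusters of the mouse genome. Krt5, Krt7, Krt8 and Krt18 are on chromosome 15 and Krt14 and Krt19 on chromosome 11 (GRCm38). Krt8 and Krt18, the only type II and type I partners among them that lie side by side, are separated by 23697 bases and transcribed away from each other. The 250 bases before the annotated start of Krt8, Krt18 and Epcam are shown because these 3 genes had their highest level in the same cluster of the single-cell library, and because Krt8 and Krt18 followed each other across the bulk libraries. They are RefSeq sequences of GRCm38.p6, 5′ to 3′ on the strand of the gene: chr15:102004343-102004592 on the minus strand for Krt8, chr15:102027966-102028215 on the plus strand for Krt18, and chr17:87635729-87635978 on the plus strand for Epcam. Capitals mark every match, on either strand, to the motifs searched. The GENCODE M21 annotation used for gene positions starts Krt8 at 102004482 and Krt18 at 102028180, so their windows lie partly inside these genes. The marked stretch of Krt8 is in that part.
Krt8: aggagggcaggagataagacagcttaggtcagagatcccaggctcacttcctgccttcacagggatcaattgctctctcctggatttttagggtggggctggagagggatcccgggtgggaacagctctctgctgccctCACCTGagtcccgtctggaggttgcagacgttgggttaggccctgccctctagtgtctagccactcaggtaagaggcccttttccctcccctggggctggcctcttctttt
Krt18: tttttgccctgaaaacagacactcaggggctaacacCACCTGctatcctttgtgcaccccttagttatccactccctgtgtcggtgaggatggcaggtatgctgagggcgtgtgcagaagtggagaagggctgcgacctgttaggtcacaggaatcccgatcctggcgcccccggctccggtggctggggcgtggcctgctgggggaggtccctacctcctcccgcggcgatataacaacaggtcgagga
Epcam: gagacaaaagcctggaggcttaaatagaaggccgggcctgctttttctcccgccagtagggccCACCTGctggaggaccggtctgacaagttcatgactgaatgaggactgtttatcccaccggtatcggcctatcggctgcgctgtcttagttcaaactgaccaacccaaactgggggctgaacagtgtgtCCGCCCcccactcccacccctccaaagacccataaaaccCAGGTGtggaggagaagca

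The motifs were CAGGTG, the E-box read by Snail and Zeb repressors in the Cdh1 promoter, GGGCGG, the GC box of Sp factors, TGANTCA, the AP-1 site, with N as C or G, TAATCC, a homeodomain core, and TATAAA, the TATA box, and no 2 matches overlapped. All 3 windows held the E-box letters, once in Krt8 and in Krt18 and at 2 places in Epcam, against 17.2% of the 32851 promoter windows of the same length. The windows of Krt7 and Krt5 held 1 match each and that of Krt14 none, and no window was at hand for Krt19, Trp63 or Cdh1. By GENCODE M21, the windows of Krt7 and Krt14 lie wholly inside these genes, so their matches may not describe a promoter. The Epcam window also held 1 GC box, which 32.7% of all windows held. No window of Krt8, Krt18 or Epcam held the letters of the AP-1 site (4.46% of all windows), of the homeodomain core (6.25%) or of the TATA box (12.4%).

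The first comparison asked whether the simple keratins differed between mutant and control ME. None of Krt8, Krt18, Krt19 and Krt7 differed beyond the spread between libraries, and the highest level of each was in the same mutant library, mutant 3. In bulk tissue, fewer cells of a type and less RNA per cell cannot be told apart, here and in all that follows. Krt8 was at 106, 70.9 and 83.9 CPM in controls 1 to 3 and at 40.1, 17.1, 231 and 50.6 CPM in mutants 1 to 4. Mutant 3 lay above all other libraries and the other 3 mutants lay below all controls, so the groups overlapped through 1 library. The log2 fold change of mutant over control was -0.04 (SE 0.70, adjusted p = 0.992), and without mutant 3 it was -1.27. Of the 50-base stretches in Krt8 transcripts, 26.9% also occur in its processed pseudogene Krt8-ps, which drew 1 to 20 counts per library, so the split of reads between them is uncertain. With the pseudogene's reads added to Krt8, the log2 fold change was -0.03.

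Krt18, the type I partner of Krt8, was at 134, 93.3 and 67.3 CPM in controls and at 49.96, 21.7, 204 and 56.1 CPM in mutants. As for Krt8, mutant 3 was highest and the other 3 mutants lay below all controls, with controls 2 and 3 in the opposite order. Its log2 fold change was -0.25 (SE 0.62, adjusted p = 0.953), and -1.20 without mutant 3. Among all tested genes, the one whose log2 CPM was most like that of Krt8 over the 7 libraries was Krt18 (Pearson r = 0.974), and that most like Krt18 after Krt8 was Cldn4, a claudin of epithelial tight junctions (r = 0.945). As a description over libraries that share their depth and dissection differences, r between Krt8 and Krt18 on log2(CPM + 1) was 0.973 with all 7 libraries and 0.870 over the 5 left without mutants 2 and 3, the libraries farthest from the median of Krt8, while Spearman's rho was 0.964 and 0.900.

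Krt19, a keratin of simple and ductal epithelia, was at 8.81, 14.7 and 8.30 CPM in controls and at 3.297, 6.25, 24.6 and 10.0 CPM in mutants. Again mutant 3 was the highest library, and mutants 1 and 2 lay below all controls (log2 fold change 0.05, SE 0.66, adjusted p = 0.991). Krt7, its usual companion in glandular epithelia, was at 18.2, 3.38 and 0 CPM in controls and at 7.79, 2.40, 26.9 and 1.79 CPM in mutants. The value of 0 in control 3, the library with the fewest detected genes, allows a level of up to 0.257 CPM at 3 counts. Both groups of Krt7 spanned more than their distance from each other (log2 fold change 0.44, SE 1.35, adjusted p = 0.961).

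**Figure D1:**
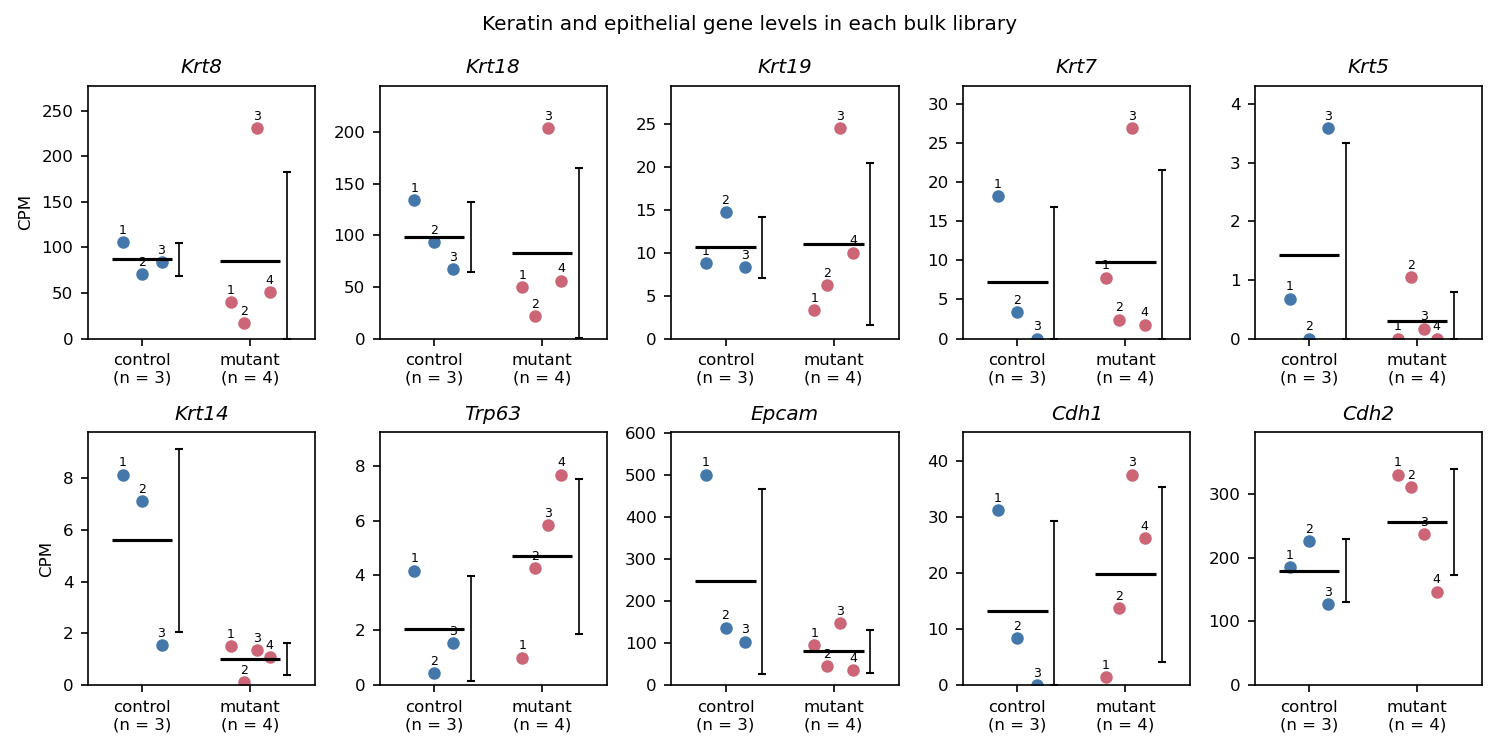
CPM of each of the 10 genes (y axes, linear, each with its own range) in 3 control and 4 mutant bulk libraries. Points are libraries with their replicate number, the horizontal lines are group means and the bars beside them 1 SD, ending at 0 where it would pass below. Mutant 3 is the highest library for Krt8 (231 CPM), Krt18, Krt19, Krt7 and Cdh1, and control 1 is the highest for Epcam (501 CPM).

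The second comparison concerned the basal, squamous pair and its regulator, the genes that a squamous tumor would express. Krt5 was close to absent, with 6, 0 and 42 counts in controls and 0, 10, 1 and 0 counts in mutants, and was not tested. In CPM these were at most 3.59 in controls, in control 3, and at most 1.04 in mutants, in mutant 2. Of the 50-base stretches of Krt5, 8.52% are shared with genes that include Krt6a and Krt6b. No mutant library reached the level of the highest control.

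Krt14 was at 8.14, 7.11 and 1.54 CPM in controls and at 1.499, 0.104, 1.34 and 1.07 CPM in mutants, from 18 to 80 counts in controls and 1 to 15 in mutants. All mutants were below all controls, by a margin of 1.540 against 1.499 CPM, and the log2 fold change was -2.47 (SE 1.04, unadjusted p = 0.0384, adjusted p = 0.585). It was the only 1 of the 9 tested members whose groups did not overlap, a pattern with controls higher that 3.18% of all tested genes had, and for mutants higher 0 of the 9 against 5.83%. The sequence of Krt14 is shared in 13.9% of its 50-base stretches with Krt16 and Krt17. The VLMC markers given above were higher in controls in the same way, and their part in the difference was not tested. In the single-cell library Krt14 had 0 UMIs in the 180 VLMC-like cells, which allows a level of up to 2.42 CPM at 3 UMIs. That cluster also held 6 of 6 endothelial and 4 of 5 mural markers at 3 times the level of other cells or more. Krt14 had only 2 UMIs in all 990 cells, so its absence from a cluster cannot show which cells express it. The genes most like Krt14 over the 7 libraries were Anxa1 (r = 0.984), Tor1b (r = 0.984) and B2m (r = 0.974).

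Trp63, the gene of p63, was at 4.18, 0.444 and 1.54 CPM in controls and at 0.999, 4.27, 5.85 and 7.69 CPM in mutants. Mutants 2 to 4 lay above all controls and mutant 1 below 2 of them, and these 3 mutants were also the libraries with the most detected genes. The log2 fold change was 1.19 (SE 1.02, adjusted p = 0.820), and it was -0.33 with the number of detected genes as a covariate. The part of that number in the difference cannot be told apart from the group with these libraries.

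Epcam, a homophilic adhesion molecule of simple epithelia, had the smallest p of the tested members. It was at 501, 136 and 103 CPM in controls and at 94.9, 44.3, 146 and 35.4 CPM in mutants. Control 1 stood far above all other libraries, 3 mutants lay below all controls, and mutant 3 was above control 2. The log2 fold change was -1.62 (SE 0.61, unadjusted p = 0.0238, adjusted p = 0.529), which did not pass the threshold, and without control 1 it was -0.60 (adjusted p = 0.460). With Krt14 it made 2 of 9 tested members with an unadjusted p below 0.05 and a higher level in controls, as 3.89% of all tested genes had, and 0 of the 9 had one with mutants higher, against 4.23%. In 2 other settings Epcam passed an adjusted p of 0.05: with no filter on low counts (log2 fold change -1.62, adjusted p = 0.0124), where 0.503% of genes were called, and without the 3 libraries with the fewest detected genes (-2.74, adjusted p = 0.0364), where 0.838% were called and control 1 was the only control left.

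The level of Epcam moved with that of pars tuberalis markers. The sum of 6 such markers, with Tshb, Cga and Chga among them, was 13262, 4630 and 2480 CPM in controls and 3238, 2241, 4164 and 802 CPM in mutants, with the highest value in control 1 and the lowest in mutant 4, as for Epcam. Per 1000 CPM of this sum, Epcam was at 37.8, 29.4 and 41.6 in controls and at 29.3, 19.8, 35.2 and 44.1 in mutants. The groups overlapped on this scale, as they already did in CPM. Cga, the glycoprotein hormone alpha subunit of the pars tuberalis, was among the 3 genes most like Epcam over the libraries (r = 0.968), after Timeless and Pygm (r = 0.976 for both). Per 1000 CPM of the same sum, Krt18 ranged more widely, from 10.1 to 27.2 in controls and from 9.67 to 70.0 in mutants. A sum of 6 markers of other pituitary endocrine cells, with Gh, Prl and Pomc among them, was 15256, 706 and 2477 CPM in controls. In mutants it was 16400, 1882, 20161 and 971 CPM, and its highest value was in mutant 3. How much of the Epcam difference is due to the amount of pars tuberalis or other pituitary tissue in a dissection was not tested. The part of such tissue in the keratin levels of mutant 3 was not tested either.

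**Figure D2:**
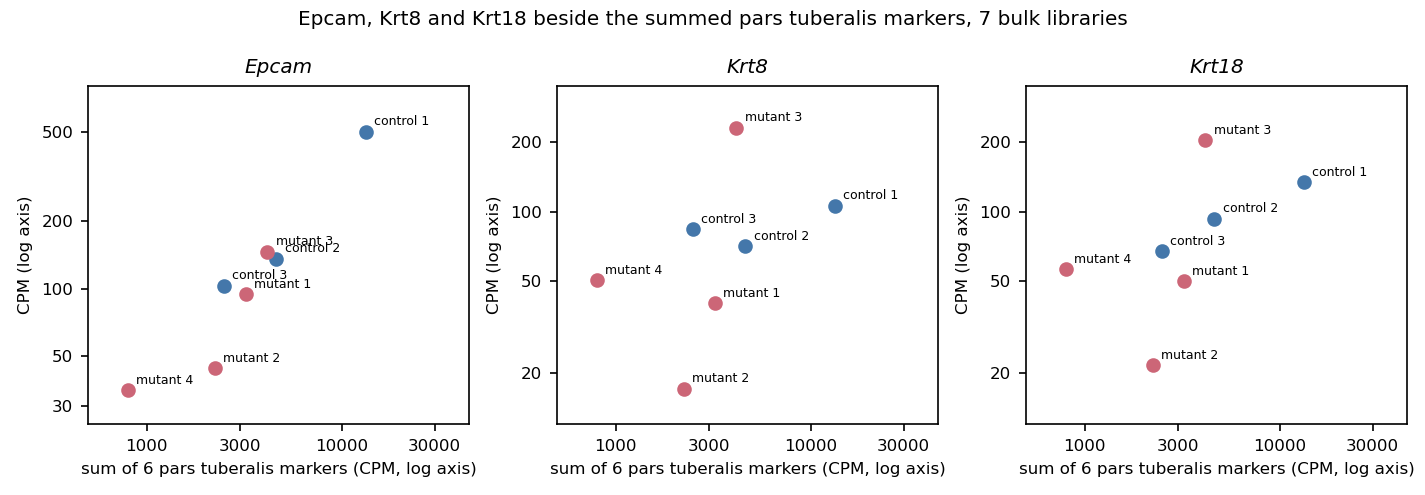
CPM of Epcam, Krt8 and Krt18 (y axes, log) against the summed CPM of 6 pars tuberalis markers (x axes, log) in the 7 bulk libraries, 1 point each, controls in blue and mutants in red. Epcam is highest in control 1 and lowest in mutant 4, as the marker sum is, whereas Krt8 and Krt18 are highest in mutant 3.

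The cadherins were compared because epithelial cells carry E-cadherin, from Cdh1, and neuroepithelial cells N-cadherin. Cdh1 was at 31.2, 8.35 and 0 CPM in controls and at 1.40, 13.8, 37.6 and 26.3 CPM in mutants. The 2 lowest libraries, control 3 and mutant 1, were from different groups, and both belong to the 3 libraries with the fewest detected genes (log2 fold change 0.58, SE 1.28, adjusted p = 0.944). Cdh2 was at 185, 226 and 127 CPM in controls and at 331, 310, 236 and 146 CPM in mutants. Mutants 1 to 3 were above all controls and mutant 4 was between the controls (log2 fold change 0.51, SE 0.35, unadjusted p = 0.170, adjusted p = 0.767).

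CPM per kilobase of annotated exon allows only a rough comparison of genes, since it divides by the union of all annotated exons. That union is 7049 bases for Krt7, against 1437 (Krt18) to 2197 (Krt5) for the other keratins. The place of Krt7 in the order may therefore depend on the annotation. On this scale the mean levels in controls ran from Epcam (112) and Krt18 (68.4) over Krt8 (44.4) and Cdh2 (22.3) to Krt19 (5.72), Krt14 (3.18), Cdh1 (2.88), Krt7 (1.02), Krt5 (0.648) and Trp63 (0.245). The ranges of neighbours in this order overlapped except between Krt8 and Cdh2 and between Cdh2 and Krt19. In mutants Krt18 led (57.7), then Krt8 (43.3), Epcam (36.6), Cdh2 (31.7), Krt19 (5.94), Cdh1 (4.32), Krt7 (1.38), Krt14 (0.570), Trp63 (0.560) and Krt5 (0.138). There, the only neighbours whose ranges did not overlap were Cdh2 and Krt19. In both groups the simple pair, Krt8 and Krt18, was thus above the basal pair, Krt5 and Krt14, by ranges that did not overlap.

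Among the 9 tested members, 4 had a log2 fold change below 0, against 43.3% of all tested genes, and their median was 0.05 against 0.13 over all tested genes. The direction of Epcam, Krt14 and Cdh2 was the same under every alternative in which they could be fitted (16, 15 and 16 settings), whereas that of Krt7, Krt8, Krt18, Krt19, Trp63 and Cdh1 turned under at least 1.

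**Figure D3:**
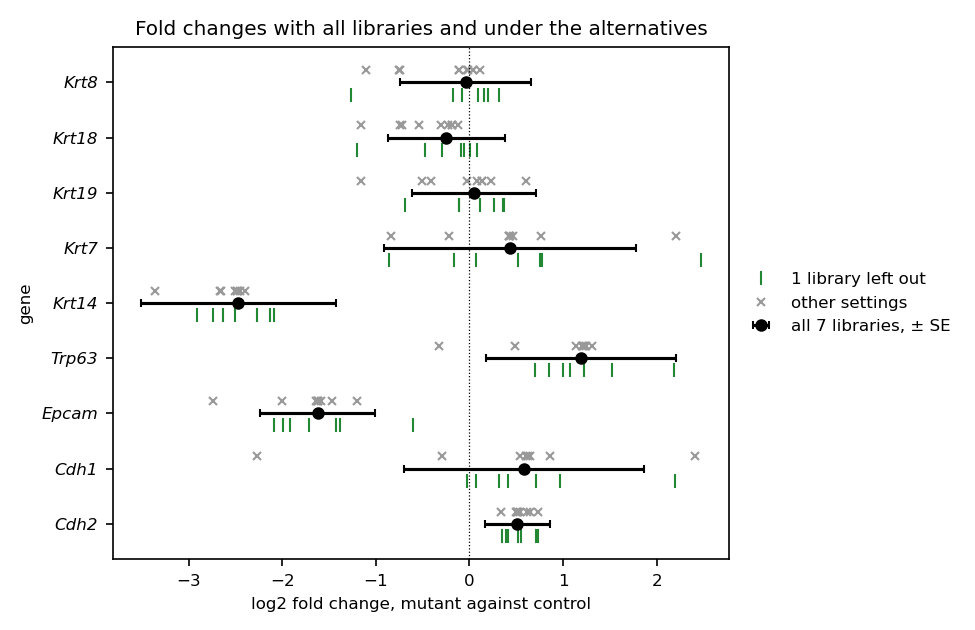
Log2 fold change of mutant over control (x axis) for the 9 tested genes, with all 7 libraries (black, ± SE), with 1 library left out (green) and under the other settings (grey). Epcam and Krt14 stay below 0 and Cdh2 above 0 throughout, and the green marks nearest to and farthest from 0 for Epcam are -0.60 and -2.09.

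The wider epithelial programme was read from 9 lists of 123 further genes, of which 98 were tested and 0 passed the threshold. Unadjusted p was below 0.05 for 5 of them, 3 with mutants higher (4.23% of all tested genes) and 2 with controls higher (3.89%). The squamous differentiation list had 9 of 19 genes tested, and Ivl, the gene of the cornified envelope protein involucrin, had 3 counts in mutant 3 and 0 in the other 6 libraries. Its 3 genes with the smallest p were Tgm1, the transglutaminase that crosslinks that envelope, at 0 to 3.38 CPM in controls and 0.799 to 11.4 in mutants, Lor (loricrin), at 5.08 to 8.47 and 2.30 to 4.11 CPM, and Sprr1a, at 6.33 to 41.2 and 10.9 to 37.6 CPM, with adjusted p between 0.775 and 0.925. The median log2 fold change of the list was 0.38, against 0.13 over all tested genes.

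In the list of other keratins, 7 of 14 genes were tested and Krt23, Krt80 and Krt17 had the smallest p (adjusted p between 0.866 and 0.912). Krt17, a keratin of stressed and basal epithelium, was at 4.18, 13.2 and 4.45 CPM in controls and at 3.40, 0.729, 43.6 and 2.14 CPM in mutants. Mutant 3 was the highest library again, as for the simple keratins. In the desmosome list the smallest p was that of Dsp (desmoplakin), the plaque protein that anchors keratin filaments, at 17.4, 10.4 and 8.39 CPM in controls and 1.599, 3.44, 8.35 and 4.83 CPM in mutants. The groups of Dsp did not overlap, by 8.39 against 8.35 CPM (log2 fold change -1.41, SE 0.64, adjusted p = 0.615), while Evpl and Dsg3 had log2 fold changes of 1.01 and 2.77 (adjusted p = 0.704 and 0.753).

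Of the adherens junction list, Cdh4, the gene of R-cadherin, had the smallest adjusted p of all 98 panel genes. It was at 5.54, 3.198 and 1.80 CPM in controls and at 28.3, 28.03, 22.9 and 26.3 CPM in mutants. All mutants were above all controls by more than the spread of either group, with a log2 fold change of 2.91 (SE 0.49, adjusted p = 0.130). DESeq2 called Cdh4, and so did edgeR without the filter on low counts, without control 1 and without the 3 libraries with the fewest detected genes. In single cells Cdh4 had 30 UMIs. Its highest level was in the dividing OPC-like cluster, at 22.9 CPM from 9 UMIs, with a counting interval of 10.5 to 43.5. The tanycyte-like cluster came next at 6.65 CPM, with an interval of 3.44 to 11.6, and the 2 intervals overlapped. In bulk, the summed markers of OPCs were 247 to 560 CPM in control and 745 to 1901 CPM in mutant libraries. The part of the OPC markers in the bulk difference of Cdh4 was not tested.

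The tight junction list had 10 of 12 log2 fold changes below 0, with a median of -0.70. Cldn7, an epithelial claudin that binds the product of Epcam, was at 67.7, 48.9 and 35.9 CPM in controls and at 27.9, 13.1, 55.6 and 10.5 CPM in mutants (log2 fold change -0.92, adjusted p = 0.711). Mutant 3 was again the only mutant among the controls. Of the surface list, Spint2, an inhibitor of epithelial serine proteases, was at 257 to 607 CPM in controls and 141 to 293 CPM in mutants (log2 fold change -0.86, adjusted p = 0.590), and St14, one of those proteases, was at 10.6 to 54.4 and 7.19 to 18.7 CPM.

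Regulators of the epithelial state gave no call. Of the epithelial transcription factor list, 10 of 15 genes were tested, and Grhl1, Elf5 and Elf3 had the smallest p, with log2 fold changes of 2.03, 2.73 and -0.78 (adjusted p between 0.714 and 0.820). Of the regulators of epithelial-mesenchymal transition, Zeb2, Foxc2 and Prrx1 had log2 fold changes of 0.84, 1.63 and 0.93 (adjusted p between 0.638 and 0.764). Vim (vimentin), the intermediate filament of mesenchymal and glial cells, was at 226, 282 and 116 CPM in controls and at 423, 346, 480 and 341 CPM in mutants. All mutants were above all controls (log2 fold change 0.93, SE 0.34, unadjusted p = 0.0204, adjusted p = 0.520). The summed astrocyte markers moved with it, at 318 to 455 CPM in controls and 708 to 898 in mutants, and their part was not tested.

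The single-cell library was used to see in which cells of the normal ME these genes are found. The 990 cells, with 3284 to 57119 UMIs each, fell into 12 clusters, named "-like" after markers, and levels are given as CPM of the UMIs summed over a cluster. The range in parentheses after a level is its 95% interval (Poisson, exact), which covers counting error only, since cells of 1 library are not replicates. Krt8, Krt18 and Epcam were highest in the pars tuberalis-like cluster, Cdh1 in the arachnoid barrier-like cluster, and Cdh2 in the tanycyte-like cluster. Of the 10 genes, 8 had a UMI and 6 had at least 20. Krt5 and Trp63 had none in 9846289 UMIs, which allows up to 0.305 CPM and a UMI in up to 0.303% of cells, and Krt14 had 2, in 1 pars tuberalis-like and 1 ependymal-like cell.

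**Figure D4:**
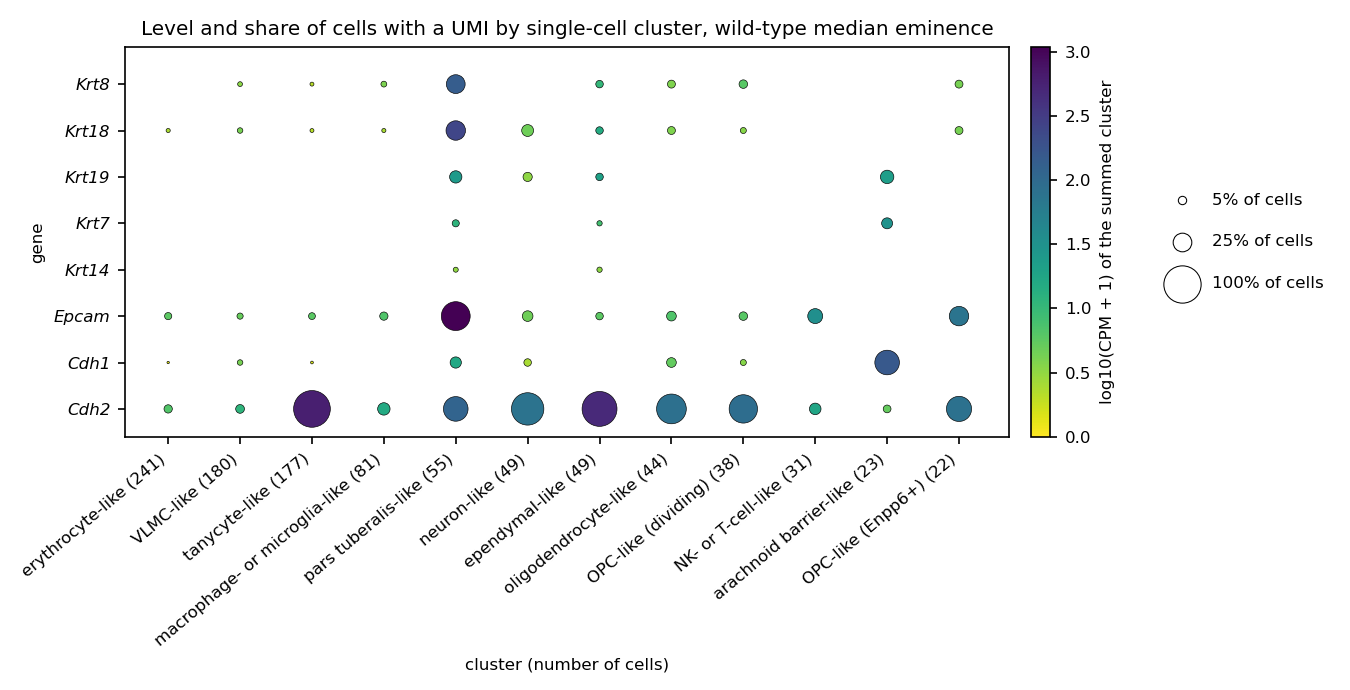
Level (color, log10 of CPM + 1) and share of cells with a UMI (dot area) of the 8 detected genes (y axis) in the 12 clusters (x axis, number of cells in parentheses) of the wild-type ME. Epcam, Krt8 and Krt18 are highest in the pars tuberalis-like cluster (1086, 140 and 252 CPM), Cdh1 in the arachnoid barrier-like cluster (159 CPM) and Cdh2 in the tanycyte-like cluster (601 CPM).

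Epcam reached 1086 CPM (992 to 1185) in the 55 pars tuberalis-like cells, which held 496 of its 566 UMIs, and 60.0% of them had a UMI. The Enpp6+ OPC-like cluster came next at 73.7 CPM (46.7 to 111; 23 UMIs) and the NK- or T-cell-like cluster after it at 33.5 CPM (12.3 to 73.0; 6 UMIs). In 8 of the other 9 clusters it was between 3.74 and 5.90 CPM, and in the arachnoid barrier-like cluster it had 0 UMIs. The tanycyte-like cells were at 4.99 CPM (2.28 to 9.46) with 3.39% of cells (median 7892 UMIs). The erythrocyte-like cells, which should lack the gene, were at 4.76 CPM (2.28 to 8.76) and 3.73% (median 7747 UMIs), and the intervals overlapped. With cells thinned to 2000 UMIs the shares were 2.26% and 0.415%, again with overlapping intervals.

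Krt18 was at 252 CPM (208 to 302) and Krt8 at 140 CPM (108 to 179) in the pars tuberalis-like cluster, with 115 of 140 and 64 of 80 UMIs. In the tanycyte-like cluster both were at 1.11 CPM, from 2 UMIs each, and no other cluster exceeded 14.3 CPM of Krt18 or 9.52 CPM of Krt8, both in ependymal-like cells. Of the 55 pars tuberalis-like cells, 14 held Krt8, 15 held Krt18 and 9 held both, and all cells with either also held Epcam. A single cell of 35093 UMIs gave 44 UMIs of Krt18, 27 of Krt8 and 100 of Epcam, or 31.4%, 33.8% and 17.7% of the library's UMIs of each. The gene most like Krt8 over the 12 clusters was Pitx1, a transcription factor of the pituitary (r = 0.960), followed by Krt18 (r = 0.920). Among the genes most like Krt18 were Chga and Nell1 (r = 0.932 and 0.928), and among those most like Epcam were Tshb and Cldn7 (r = 0.938 and 0.882).

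The cells of the pars tuberalis-like cluster were not alike, and were split by hormone UMIs after their values were seen. Of the 55 cells, 22 had at least 10 UMIs of Cga, 6 had at least 10 UMIs of Pomc, the precursor of ACTH and MSH in other pituitary cells and in some neurons, and 27 had neither. In the 22 Cga cells, Epcam was at 1317 CPM with a UMI in all 22, Krt18 at 336 CPM in 10 cells and Krt8 at 203 CPM in 11 cells. The 6 Pomc cells all held Epcam (431 CPM, 22 UMIs), but had 0 UMIs of Krt18 and 1 of Krt8 in 51035 UMIs. The 27 cells with neither hormone were divided by whether they held Epcam, so its presence or absence in them is set by that split. The 5 with Epcam held it at 3552 CPM, Krt18 at 710 CPM in all 5 and Krt19 at 226 CPM in 3. They had 12 UMIs of Pitx1 and 1 of Cga. The 22 without Epcam held 0 UMIs of all 6 keratins in 98526 UMIs. These 22 held 35 UMIs of Rax in 17 cells, so the cluster's name does not hold for them.

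**Figure D5:**
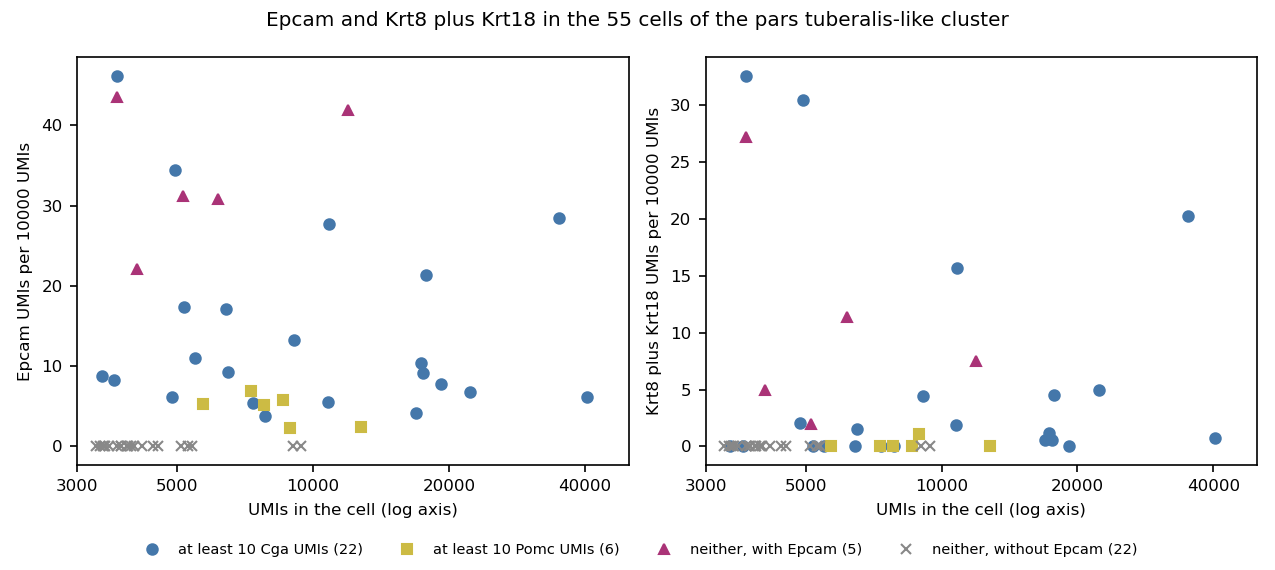
UMIs of Epcam (left) and of Krt8 plus Krt18 (right) per 10000 UMIs of the cell (y axes) against the UMIs of the cell (x axes, log), for the 55 cells of the pars tuberalis-like cluster, marked by hormone UMIs. Cells with neither hormone are marked by whether they hold Epcam. All 22 Cga cells and 6 Pomc cells hold Epcam, and Krt8 or Krt18 is found in Cga cells, in the 5 cells with Epcam and neither hormone, and as 1 UMI in 1 Pomc cell.

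Krt19 and Krt7 had few UMIs, most or all of them in the same 3 clusters. Krt19 was at 24.1 CPM (12.02 to 43.1; 11 UMIs) in the pars tuberalis-like, 20.98 CPM (6.81 to 49.0; 5 UMIs) in the arachnoid barrier-like and 19.0 CPM (8.22 to 37.5; 8 UMIs) in the ependymal-like cluster. These 3 intervals overlapped, and only 3 further UMIs were found, in neuron-like cells. In the ependymal-like cluster, 7 of the 8 UMIs came from 1 cell. With 10 components, Krt19 was at 42.8 CPM (18 UMIs) in the pars tuberalis-like cluster. Krt7 had 15 UMIs, 7 in the arachnoid barrier-like, 5 in the pars tuberalis-like and 3 in the ependymal-like cluster. Its UMIs came from 5 cells, 1 of which held 6, and the only ependymal-like cell with Krt7 also held Krt8, Krt18 and Krt19.

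Cdh1 was at 159 CPM (113 to 219) in the 23 arachnoid barrier-like cells, with a UMI in 10 of them, and held 38 of its 57 UMIs there. Of these, 17 came from 1 cell of 47434 UMIs, or 29.8% of the library's UMIs of Cdh1. With cells thinned to 2000 UMIs, 8.70% of these cells and 3.64% of the pars tuberalis-like cells held Cdh1, with overlapping intervals. The pars tuberalis-like cluster, the next highest, was at 15.3 CPM (6.16 to 31.6), so the highest level of E-cadherin was not in the cells with the highest Epcam. The arachnoid barrier-like cluster held 0 UMIs of Epcam, Krt8 and Krt18, and 1 UMI of Cdh2. Its cells were named from Slc47a1, Abcg2 and Dpp4, at 1083, 357 and 20.98 CPM against 5.10, 15.0 and 0.937 CPM in all other cells. Cldn11, the remaining marker, was at 739 against 726 CPM. The study counts Slc47a1 among its markers of pars tuberalis cells, so the clusters named here may divide cells that it joined. The genes most like Cdh1 over the clusters were Mpzl2, Slc26a7 and Slc9a2 (r = 0.951, 0.946 and 0.909).

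The same cluster held the highest level of 5 of the 8 squamous differentiation genes with at least 20 UMIs. The remaining ones, Lor, Sprr1a and Pax9, were highest in neuron-like, tanycyte-like and VLMC-like cells. Of the 19 genes in the list 13 had a UMI, and Ivl and Flg were among those with none. The share of all genes with their highest level there is not given, so the count is not read as a trait of this cluster. Krtdap, a gene named for its expression with keratins in differentiating keratinocytes, was at 764 CPM, from 182 UMIs in 6 of the 23 cells, against 0.729 CPM elsewhere. Perp, a p63 target of desmosomes, was at 835 CPM in 22 of the 23 cells, against 19.2 CPM elsewhere. Dmkn (dermokine), Sbsn (suprabasin) and Klf5 were at 193, 83.9 and 79.7 CPM, in 4, 8 and 11 of the 23 cells. In bulk, Perp had 203 to 671 counts in controls and 247 to 405 in mutants (log2 fold change -0.12), and Krtdap had 6, 0 and 0 counts in controls and 3, 0, 2 and 9 in mutants. These counts, unlike the fold change, are not scaled for library size.

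Other lists divided along the same lines. Cldn7 (280 CPM), Cldn3 (112 CPM), Spint2 (777 CPM), Spint1 (78.8 CPM) and Dsp (39.4 CPM) were highest in the pars tuberalis-like cluster, as Epcam was. Of the epithelial transcription factor list, 11 of 15 genes had a UMI and 0 reached 20.

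Cdh2 marked the ventricular lining. It was at 601 CPM (565 to 637) in the 177 tanycyte-like cells, 97.2% of which had a UMI, and at 483 CPM (419 to 554) in the 49 ependymal-like cells. All other clusters were lower: pars tuberalis-like 116 CPM, dividing OPC-like 91.6 CPM, oligodendrocyte-like 83.1 CPM, Enpp6+ OPC-like 80.2 CPM and neuron-like 75.5 CPM, then at most 16.8 CPM, with 5.72 CPM and 4.98% of cells in the erythrocyte-like cluster. Within the pars tuberalis-like cluster, 27 of the 53 UMIs of Cdh2 came from the 22 cells without Epcam or hormone, 17 of which held Rax, at 274 CPM against 79.6 CPM in Cga cells. Per 10000 UMIs, the median tanycyte-like cell held 6.05 UMIs of Cdh2 (quartiles 3.98 and 8.39) and the median ependymal-like cell 4.85 (quartiles 2.77 and 6.12). The genes most like Cdh2 over the clusters were Lrrc75b, Sorcs1 and Gldc (r = 0.947, 0.941 and 0.932).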

How the data were processed

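The members, gene lists and tests were chosen with earlier results of these data known. For bulk RNAseq, the authors deposited raw counts per Ensembl gene, from Smart-seq2 cDNA of single mice; the aligner and the counter are not given in the sources used here. For single cells, the authors deposited UMI counts per gene and cell from 1 library of 10 pooled mice, made with Cell Ranger (2.0.1 in the submitters' processing notes, which also name DESeq2, GRCm38 and mm10). Symbols were matched to Ensembl identifiers through the single-cell gene table. GENCODE M21 gave positions and exon lengths, and shared sequence was the share of 50-base stretches of a gene that recur in another gene's transcripts.

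Mutant and control counts were compared by edgeR 4.0.16 under R 4.3.3 (TMM scaling, default filter on low counts, quasi-likelihood test, no covariate). The labels say that libraries are separate samples. An SE is the log2 fold change over the square root of F. Alternatives were DESeq2 1.42.0, limma-voom (limma 3.58.1), other scalings, filters and thresholds, the replicate number as a block, detected genes as a covariate, and libraries left out. Adding the reads of Krt8-ps to Krt8 was chosen after seeing the data. Panel genes were named where past the threshold, otherwise the up to 3 tested genes with the smallest p, and others named were chosen after their values were seen. A few genes that this rule names are not reported here. Likeness is Pearson's r of log2 CPM (prior count 2) over libraries, or of log2(CPM + 1) over clusters for genes with at least 50 UMIs.

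Cells were clustered with Seurat 5.3.0 at resolution 0.8 on 20 components of variable genes (mean 0.02 to 8, dispersion 0.5 or more, 10000 UMIs as scale), leaving out members and panel genes. A name needed 3 markers at 3 times the level of other cells. Scrublet, through scanpy 1.11.5, called 3 doublets (0.303% of cells), which were kept. Only the bulk tests (edgeR, limma-voom and DESeq2) were tried on simulated counts, and the single-cell steps were not. Intervals came from scipy 1.17.1 and plots from matplotlib 3.10.9.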

Additional observations from a re-analysis of the deposited data

Results flagged for a closer look

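In each of the 10 genes, the 4 mutant libraries were checked for 1 that stood apart from the other 3, by the gap to its neighbor over the range of the group. For normally distributed values, chance marks about 1 in 20 such groups. CPM from few counts, as for Krt5, need not follow that rate, and the 10 groups share the same 4 libraries. Of the 10, 2 were marked. Krt8 was at 231 CPM in mutant 3, against 17.1 to 50.6 CPM in the other mutants. Krt5 was at 1.04 CPM in mutant 2, from 10 counts, against 0 to 0.167 CPM in the others. Controls, with 3 libraries, were not checked in this way.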

How the results depend on the processing

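Genes called at an adjusted p below 0.05 numbered 0 with all libraries and the quasi-likelihood test, 301 with DESeq2, 1 with upper-quartile scaling, 3 with library sizes alone, 0 with limma-voom, 240 with no filter, 13 with at least 10 counts in every library, 1 with detected genes as a covariate, 210 without the 3 libraries with the fewest detected genes, 14 at an adjusted p below 0.1, and from 0 to 45 with 1 library left out (45 without control 1, 16 without control 3). With those 3 left out, 1 control remains and is assumed to vary as the mutants do. Members called numbered 0, except 1 (Epcam) with no filter and 1 (Epcam) without those 3 libraries. Panel genes called numbered 0, except 1 (Cdh4) with DESeq2, 1 (Cdh4) with no filter, 1 (Cdh4) without control 1, so 0 to 1 with 1 library left out, and 3 (Spint1, Cdh4 and St14) without those 3 libraries. The cause of these changes was not tested.

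Log2 fold changes that turned were those of Krt7 (-0.22 with the covariate, -0.84 without the 3 libraries), Krt8 (0.0335 with upper-quartile scaling, 0.11 with library sizes alone, 0.0334 with the strict filter), Krt19 (-0.51 with limma-voom, -0.0251 with no filter, -1.16 with the covariate), Trp63 (-0.33 with the covariate) and Cdh1 (-2.27 with the covariate, -0.29 without the 3 libraries). With 1 library left out they ran from -0.86 to 2.48 for Krt7, from -1.27 to 0.31 for Krt8, from -1.20 to 0.0804 for Krt18, from -0.69 to 0.37 for Krt19 and from -0.0294 to 2.19 for Cdh1. Library sizes alone moved the median of all genes from 0.13 to 0.25, limma-voom to 0.35 and no filter to 0.59, and the share of positive fold changes from 56.7% to 64.1%, 64.2% and 66.5%.

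The replicate numbers share only a name: deviations of same-numbered libraries correlated at -0.454, -0.008 and -0.227. With the number as a block, 0 genes were called and Krt19 was at -0.41 and Epcam at -1.20 (adjusted p = 0.999).

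In single cells, the 6 members with at least 20 UMIs had the same highest cluster in all 6 alternatives. Of 42 levels and shares, 38 stayed within the counting interval. Cdh2 reached 732 CPM at resolution 1.2, and with cells thinned to 2000 UMIs the shares of cells were 14.5% for Krt8, 8.70% for Cdh1 and 71.2% for Cdh2. With 1 wild-type library, no level in mutant cells can be given.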
